A study of Mus musculus with 12 samples.

Results

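Lung-only wild-type CTCF sites are places in the mouse genome where a CTCF peak was listed in wild-type lung and in neither wild-type brain nor wild-type heart. The unique peak regions of 6 lists were merged wherever they shared at least 1 bp, which gave 56248 sites. A site carried a list if any region of that list overlapped it. Of these sites, 43676 carried the wild-type lung list, and 12163 of them carried no wild-type brain or heart region. The lung-only sites were therefore 21.6% of all merged sites and 27.8% of the wild-type lung sites. They were selected on the 3 wild-type lists, so their strength in wild-type lung and their absence from wild-type brain and heart are descriptions and not findings. The 3 R567W lists entered only through the merging. There, their regions help to set the extent of a site and can join a lung region to a wild-type brain or heart region. Listing in R567W is therefore not fully independent of membership. The DNA sequence and the gene annotation played no part in the rule.

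The zinc-finger protein CTCF recognises a core motif with its central fingers and, at a subset of sites, contacts an additional upstream motif with the fingers nearer its C terminus. It stops the extrusion of chromatin loops by cohesin and so marks loop anchors and domain boundaries. Most of its strong sites are bound in nearly every tissue, and sites that differ between tissues are commonly weaker. R567W replaces an arginine by a tryptophan in the last of the zinc fingers, among those that contact the upstream motif.

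Brain, heart and lung tissue came from C57BL/6 embryos (C57BL/6 N in the study's methods) at E18.5 that were either wild type or homozygous for CTCF-R567W, an allele made by CRISPR/Cas9 editing. Every sample received the same amount of chromatin from HEK293T, a line of human embryonic kidney cells, as a spike-in. Each of the 3 tissues and both genotypes had 1 CTCF ChIP library. No comparison of genotypes within a tissue, or of tissues within a genotype, therefore has a replicate, and no p-value is given. Intervals below are 95% intervals for counting error only, Wilson for shares and Newcombe for differences of shares. In organs made of many cell types, fewer cells that bind a site and less binding per cell cannot be told apart. Peak lists hold no expression, so the tissue labels were not checked against marker RNA here. Wild-type lung had the longest list, with 44386 regions against 36034 in wild-type brain and 21059 in wild-type heart. The R567W lists held 32498 regions in lung, 38390 in brain and 11515 in heart. The lowest local background of a list was 1.53 reads in wild-type lung and 1.42 reads in R567W lung, and lay between 1.70 and 2.02 reads in the other 4 lists. The median local background over regions was highest in wild-type lung, at 3.63 reads. It was 1.55 reads in R567W lung and lay between 1.81 and 2.23 reads in the other 4 lists.

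The sequences under the 10 lung-only sites of highest fold enrichment in wild-type lung are shown first, and the fold enrichment or reads of each site are given after them. Each is 55 bases of GRCm38, read 5′ to 3′ on the strand of its core motif. Capitals mark the 19 bases of the core motif and, where it lay within 30 bases 5′ of the core, the best match to the upstream consensus TGCAGTNCC with at most 2 mismatches. Sites are named by the nearest start site of a protein-coding gene. The first 7 sites were also listed in R567W lung and the last 3 in no R567W list, with the strongest first within each set.
Srsf3, chr17:29020655-29020709, minus strand: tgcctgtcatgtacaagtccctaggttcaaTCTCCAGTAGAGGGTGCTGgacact
Gimap8, chr6:48647130-48647184, plus strand: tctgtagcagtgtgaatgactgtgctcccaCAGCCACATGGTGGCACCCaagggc
Rflnb, chr11:76027821-76027875, plus strand: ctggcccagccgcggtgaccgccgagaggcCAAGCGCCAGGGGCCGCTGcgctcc
Slc3a2, chr19:8695530-8695584, plus strand: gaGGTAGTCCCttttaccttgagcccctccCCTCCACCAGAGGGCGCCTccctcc
Dnmt3a, chr12:3759555-3759609, plus strand: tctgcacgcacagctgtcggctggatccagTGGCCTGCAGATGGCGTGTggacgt
2010106E10Rik, chrX:112524895-112524949, plus strand: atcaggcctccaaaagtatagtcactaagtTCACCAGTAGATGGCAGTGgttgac
Pir, chrX:164287265-164287319, minus strand: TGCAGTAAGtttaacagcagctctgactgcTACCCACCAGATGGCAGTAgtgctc
4930467E23Rik, chr8:19703277-19703331, minus strand: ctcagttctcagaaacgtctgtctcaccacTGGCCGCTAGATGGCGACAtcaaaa
Otulinl, chr15:27715542-27715596, minus strand: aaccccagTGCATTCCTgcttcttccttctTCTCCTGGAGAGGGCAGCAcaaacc
Rnf225, chr7:12943686-12943740, minus strand: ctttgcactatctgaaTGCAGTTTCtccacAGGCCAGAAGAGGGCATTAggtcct

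Fold enrichment sets the pileup at the summit against the local background, each plus a pseudocount. The 10 lung-only sites of highest wild-type lung fold enrichment ranged from 27.3 to 36.2. Their summit pileup, the number of reads stacked at the summit, ranged from 68 to 151. All 10 had a core motif, 3 lay within 1 kb of a transcription start site, 7 were also listed in R567W lung and 3 were in no R567W list. The strongest site lay 634 bp from the start of the lincRNA Gm16195 and 11969 bp from the start of Srsf3, a splicing factor gene. Its fold enrichment was 36.2 in wild-type lung, 38.4 in R567W lung and 7.87 in R567W heart, and it was not listed in R567W brain. The next site lay 55 bp from the start of Gimap8, which encodes a GTPase of the immunity-associated family. It reached a fold enrichment of 33.7 on 94 reads in wild-type lung and 20.5 on 52 reads in R567W lung, and no brain or heart list of either genotype held it. At the promoter of Rflnb, which encodes the filamin-binding protein refilin B, the pileup was 151 reads in wild-type lung and 180 in R567W lung. This site was also listed in R567W brain and heart, with 57 and 46 reads.

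A site 17405 bp from the start of Slc3a2, the heavy chain of several amino acid transporters, had 73 reads in wild-type lung and 43 in R567W lung. A site in an intron of Dtnb, which encodes dystrobrevin beta, had 73 and 56 reads, and its nearest coding start, 47428 bp away, was that of Dnmt3a, a de novo DNA methyltransferase. Both were absent from every brain and heart list. On the X chromosome, intronic sites of 2010106E10Rik and Pir, which encodes the nuclear iron-binding protein pirin, had 72 and 69 reads in wild-type lung and 45 and 40 in R567W lung. The first was also listed in R567W brain, with 37 reads, and the second in no brain or heart list. The remaining sites of the 10 were not listed in any R567W tissue. They lay in intergenic sequence near 4930467E23Rik, near Otulinl, a relative of the deubiquitinase Otulin, and near Rnf225, a RING finger gene, with 74, 98 and 68 reads in wild-type lung. The next strongest member of this kind, 4741 bp from the start of Rhox10 in a cluster of reproductive homeobox genes, had 72 reads.

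The 6 sites with the smallest sum of ranks of fold enrichment in wild-type and R567W lung, among those in neither R567W brain nor R567W heart, were chosen on the R567W lung list as well, so their values there are a description. In an intron of the lincRNA Gm49008, 181931 bp from the start of the GTPase gene Rap2a, the pileup was 89 reads in wild-type lung and 80 in R567W lung, at fold enrichments of 26.1 and 31.3. Near Il20ra, a receptor subunit for cytokines of the interleukin-20 family, it was 67 and 60 reads, at 26.6 and 25.2. Near Sash1, which encodes a signalling scaffold, it was 67 and 56 reads, at 26.6 and 21.7. Pileup and fold enrichment moved in opposite directions at the first of these and fell together at the other two. A site in an intron of Wdr33, a gene of messenger RNA 3′ end processing, had 91 and 59 reads, at 22.4 and 24.8. A site 6463 bp from the start of Uqcr10, a subunit of respiratory complex III, had 83 and 63 reads, at 25.2 and 26.4. A site 19 bp from the start of the lincRNA Gm5444 had 54 and 74 reads, at 21.5 and 30.9. The last 2 had no core motif within 100 bp of the summit. Raw pileup was thus lower in R567W lung at 5 of the 6 sites, while fold enrichment was higher there at 4 of the 6. Fold enrichment also depends on local background, with a median over regions of 3.63 reads in wild-type lung and 1.55 in R567W lung. In wild-type lung it was 2.44, 3.11 and 2.34 reads at the Gm49008, Wdr33 and Uqcr10 sites. Near Il20ra, Sash1 and Gm5444 it was 1.56 reads. The part of background in the fold enrichments was not tested.

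Lung-only sites were mostly weak in wild-type lung, the list that selected them. Their median pileup was 19 reads, with an interquartile range of 12 to 29, against a median of 88 and a range of 45 to 145 at the 31513 other wild-type lung sites. The median fold enrichment was 6.62 against 13.6, and the median width of the peak region 236 bp against 364 bp. The median local background was 1.82 reads at lung-only sites and 4.93 reads at the others. All wild-type lung sites were divided by their pileup into 10 deciles of equal size. The share of wild-type lung sites that were lung-only fell from 86.2% in the lowest decile of pileup to 21.4% in the fifth, 1.51% in the seventh and 0 of 4368 sites in the highest. Brain-only sites, chosen in the same way, were as weak in their own list, with a median of 16 reads.

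**Figure D1:**
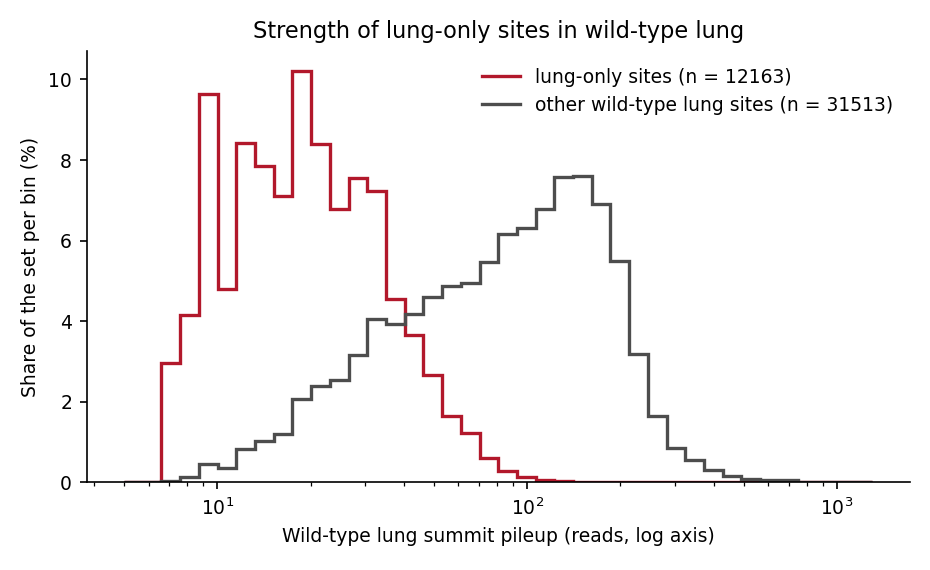
Summit pileup in wild-type lung (x axis, reads, log scale) of the 12163 lung-only sites in red and the 31513 other wild-type lung sites in grey, as the share of each set per bin (y axis, %). The medians are 19 and 88 reads, and the sets were selected in part on this list.

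The members nearest to a wild-type brain region lay 4, 5 and 19 bp from it, near Ptma, Coro2a and Tnrc6c, with 14, 11 and 8 reads in wild-type lung. The lowest −log10 q of a member was 1.31, at sites near Bbx and Stam2 with 8 reads each. The sites that came closest from outside lay near Mnt, Wnt10b and Ap2a2. They had 23, 22 and 14 reads in wild-type lung, and each was left out by a wild-type brain region with a −log10 q of 1.30. Of the members, 1017 had a wild-type brain or heart region within 1 kb, and 3189 had a −log10 q under 5 in wild-type lung. When each longer list was cut to the 21059 regions of the wild-type heart list by −log10 q, 1571 lung-only sites were left. The R567W heart list, with 11515 regions, was already shorter. The number of lung-only sites thus moves with the length of the lists.

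The R567W lung list shows which of these sites also passed the peak threshold in the lung of mutant embryos. It held 3605 of the 12163 lung-only sites, or 29.6% (28.8 to 30.5), against 66.9% of all wild-type lung sites and 81.3% of the other wild-type lung sites. With lists cut to at most 21059 regions, the share of the remaining lung-only sites was 51.9% (49.5 to 54.4). The difference between lung-only and other sites was -51.6 points (-52.6 to -50.7). Much of this difference went with strength. Among lung-only sites, the share listed in R567W lung rose from 15.5% in the lowest decile of pileup, where sites had 7 to 14 reads, to 33.1% in the third, 58.1% in the fifth and 84.8% in the seventh, where they had 78 to 106 reads. Other wild-type lung sites of the same deciles reached 32.8%, 47.7%, 69.5% and 90.2%. Averaged over deciles of pileup with the weights of the lung-only sites, the difference was -15.3 points (-16.9 to -13.7). Over deciles of fold enrichment it was -28.9 points (-30.3 to -27.5). The rule bears on all these differences, because the other sites were also listed in wild-type brain or heart and lung-only sites in neither. Since R567W lung had a shorter list than wild-type lung, a site missing from it is below the threshold of 1 library and not shown to be unbound.

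**Figure D2:**
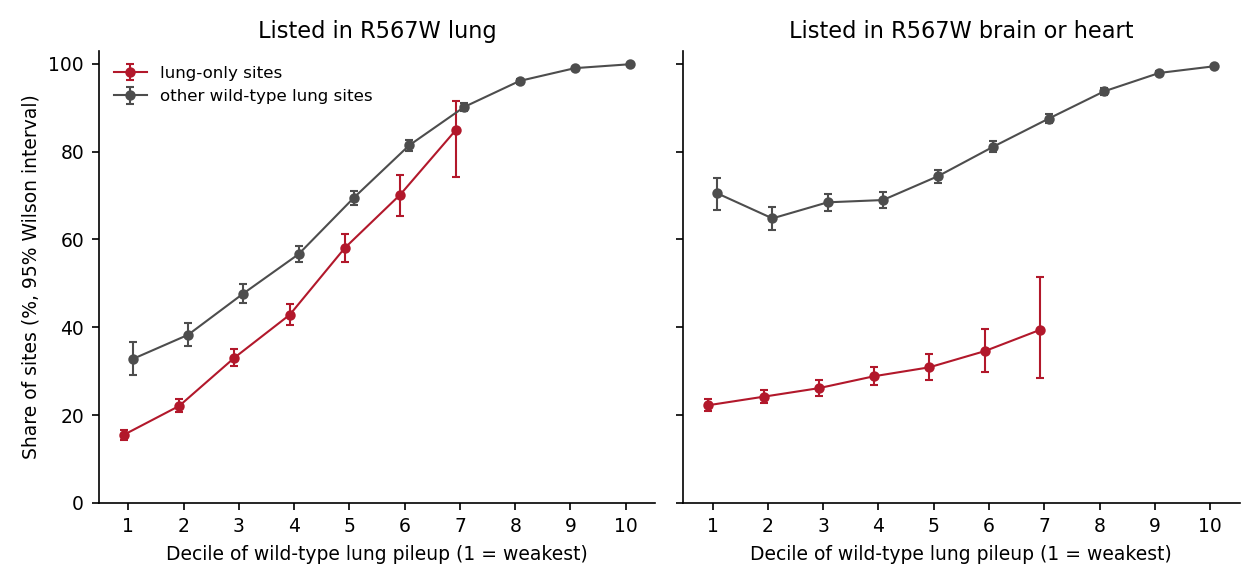
Share of sites listed in R567W lung (left) and in R567W brain or heart (right) on the y axis (%, bars are 95% Wilson intervals), by decile of wild-type lung pileup on the x axis from weakest to strongest. Lung-only sites are red and other wild-type lung sites grey, points with under 20 sites are not drawn, and in the first 7 deciles the red points lie below the grey ones, by more in the right panel than in the left.

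At the 3605 lung-only sites in both lung lists, pileup was compared relative to the lowest background of each list. The median log2 ratio of R567W to wild-type lung was -0.20, with an interquartile range of -0.64 to 0.19. At the 25616 other sites in both lists it was -0.38, with a range of -0.92 to -0.01. The summits lay a median of 13 bp apart at lung-only sites and 5 bp at the others. Ratios were measured only where a site passed the threshold of both lists, so weak sites that fell in R567W lung are missing from them. They carry no spike-in scaling, so their level is not a measured change in binding. Median wild-type lung pileup was 26 reads at these lung-only sites and 106 at the others, and strength was not held.

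In R567W brain and heart, where the wild-type list of the same tissue had no peak, a part of the lung-only sites was listed as well. The R567W brain list held 3077 of them, or 25.3%, against 68.3% of all wild-type lung sites. The R567W heart list held 78, or 0.641%, against 26.0%. Together these lists held 3107 sites or 25.5% (24.8 to 26.3), against 68.5% of all wild-type lung sites. In the lowest pileup decile this share was 22.2%, above the 15.5% in R567W lung, and in the second it was 24.2% against 22.1%, while from the third decile to the seventh the R567W lung share was the higher one. Within deciles of pileup, the difference of the R567W brain or heart share from the other wild-type lung sites was -43.7 points (-45.3 to -42.1). The rule itself bears on this value, because sites absent from wild-type brain and heart were compared with sites present in at least 1 of them.

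The 12163 sites fell into 4 classes by their R567W lists. The largest, 7076 sites or 58.2%, was in no R567W list, against 23.1% of all wild-type lung sites. A further 1980 sites, or 16.3%, were in the R567W lung list and in neither R567W brain nor R567W heart, against 8.38% of all wild-type lung sites. Listed in R567W lung and in R567W brain or heart were 1625 sites, or 13.4%, against 58.5% of all wild-type lung sites. The remaining 1482 sites, or 12.2%, were listed in R567W brain or heart and not in R567W lung, against 10.0%. The median wild-type lung pileup was 26 reads in both classes that were listed in R567W lung, 16 reads in sites of R567W brain or heart only and 17 reads in sites of no R567W list.

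The same rule for another tissue gave 4710 brain-only and 330 heart-only sites. Of the brain-only sites, 51.9% were in the R567W list of their own tissue, against 81.3% of all wild-type brain sites. For heart-only sites this was 7 of 330, or 2.12%, against 50.7% of all wild-type heart sites. Own-tissue listing was thus lower in lung-only than in brain-only sites and higher than in heart-only sites. The R567W brain list was longer than its wild-type list, while those of lung and heart were shorter, and the part of list length in this order was not tested. The R567W lung list held 12.5% of brain-only sites, against 72.4% of all wild-type brain sites and 17.1 points (15.9 to 18.4) below its share of lung-only sites.

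**Figure D3:**
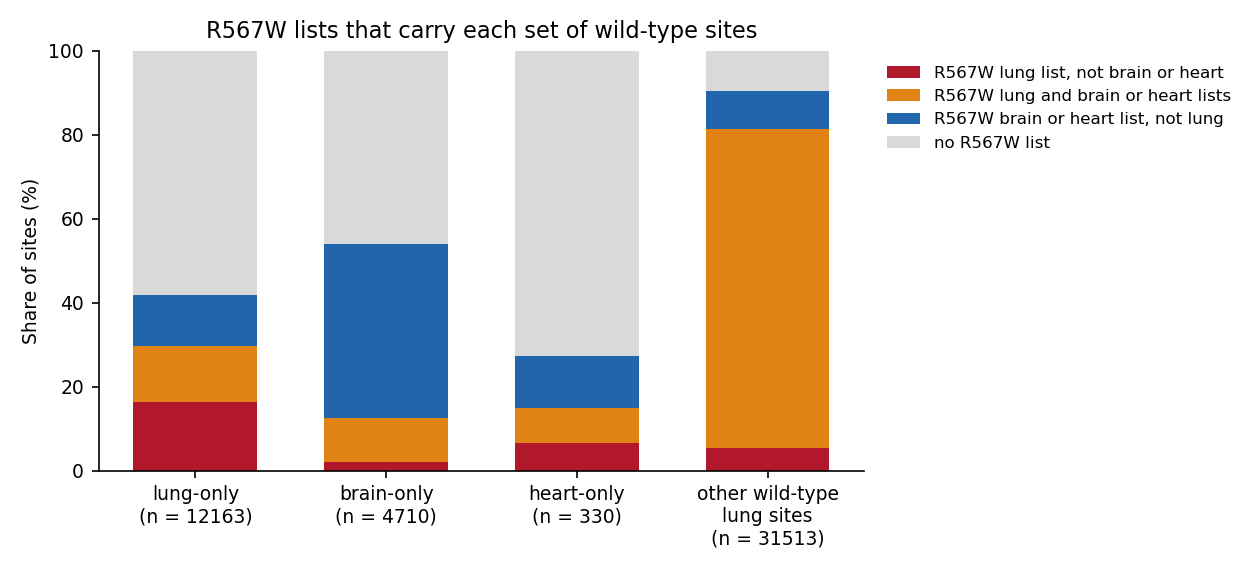
Share of sites (y axis, %) in each class of R567W lists for lung-only, brain-only, heart-only and other wild-type lung sites (x axis). Red and orange together are the share listed in R567W lung, which is 29.6% for lung-only sites, 12.5% for brain-only sites, 14.8% for heart-only sites and 81.3% for the other wild-type lung sites.

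A core motif was found within 100 bp of the summit at 9095 lung-only sites, or 74.8% (74.0 to 75.5). Windows centred 1100 bp to either side of the same summits held it at 8.63% and 8.29%. The share was 92.3% at the other wild-type lung sites, a difference of -17.6 points (-18.4 to -16.7) that came to -3.13 points (-4.66 to -1.60) within deciles of pileup. In brain-only sites the share was 76.8% and in heart-only sites 46.1%. At the stricter cutoff of p at most 1e-05, 48.9% of lung-only sites and 76.2% of the others kept a core motif. Lung-only sites with a core motif were listed in R567W lung at 31.6% and those without it at 23.9%, but within deciles of pileup the difference was -0.12 points (-2.47 to 2.24), so it was within counting error once strength was held.

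The presence of the upstream motif went with a lower share in R567W lung. Of lung-only sites with a core motif, 26.7% also had the upstream motif, against 28.4% of other wild-type lung sites with a core motif and 14.2% in a mirrored window on the 3′ side. Sites with the upstream motif were in the R567W lung list at 23.0% (n = 2426) and sites with the core motif alone at 34.7% (n = 6669). The difference was -11.8 points (-13.8 to -9.71), and -12.9 points (-14.9 to -11.0) within deciles of pileup. With lists cut to at most 21059 regions it was -24.8 points (-30.1 to -19.2). Matches in the mirrored window gave a difference of -1.93 points (-4.58 to 0.82). At the other wild-type lung sites with a core motif, which were stronger, the difference was -9.45 points (-10.5 to -8.42). Among lung-only sites, the summit lay in soft-masked (repetitive) DNA at 49.8% with the upstream motif and 30.3% with the core motif alone. The part of repeats in the difference was not tested. At lung-only sites in both lung lists, the median log2 ratio of R567W to wild-type pileup was -0.48 with the upstream motif (n = 557) and -0.20 without it (n = 2316). Of the 10 sequences shown above, 4 carry the upstream motif. Those near Rnf225 and Otulinl were in no R567W list, and those near Slc3a2 and in Pir were in R567W lung, with 43 reads against 73 and 40 against 69.

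By position, the summits of 25.9% of lung-only sites (25.1 to 26.7) lay at promoters, up to 1 kb from an annotated transcription start, 4.14% lay in exons, 41.6% in introns and 28.4% between genes. The promoter share was 18.1% at the other wild-type lung sites and 18.7% at brain-only sites. The difference from the other wild-type lung sites, 7.84 points (6.96 to 8.73), turned to -7.60 points (-9.22 to -5.99) within deciles of pileup. In the lowest decile, which held 1905 of the 3152 promoter members, the shares were 50.6% and 51.2% (47.2 to 55.1), which differed by less than counting error. From the second decile to the sixth the lung-only share was the lower one, at 21.1% against 34.2% in the second. With wild-type lung regions of −log10 q of at least 5 only, the promoter share of lung-only sites was 15.6%. With lists cut to at most 21059 regions it was 10.8%. Promoter members had a median pileup of 12 reads and a median GC content of 65.7%, against 22 reads and 47.8% at the other members. Of the 3068 members without a core motif, 52.7% were at promoters, against 16.9% of those with a core motif.

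Promoter members were listed in the R567W lists more often than the rest in spite of their low pileup. Their share in R567W lung was 34.0% against 28.1%, a difference of 5.90 points (4.02 to 7.81) and of 17.4 points (15.6 to 19.2) within deciles of pileup. In R567W brain or heart it was 36.6% against 21.7%. Across the classes, promoters made up 40.1% of the sites of R567W lung with brain or heart, 34.0% of those of R567W brain or heart only, 21.3% of those of R567W lung only and 22.3% of those in no R567W list. A core motif together with the upstream motif was found at 15.8% of the sites of R567W lung only and at 22.3% of those in no R567W list.

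**Figure D4:**
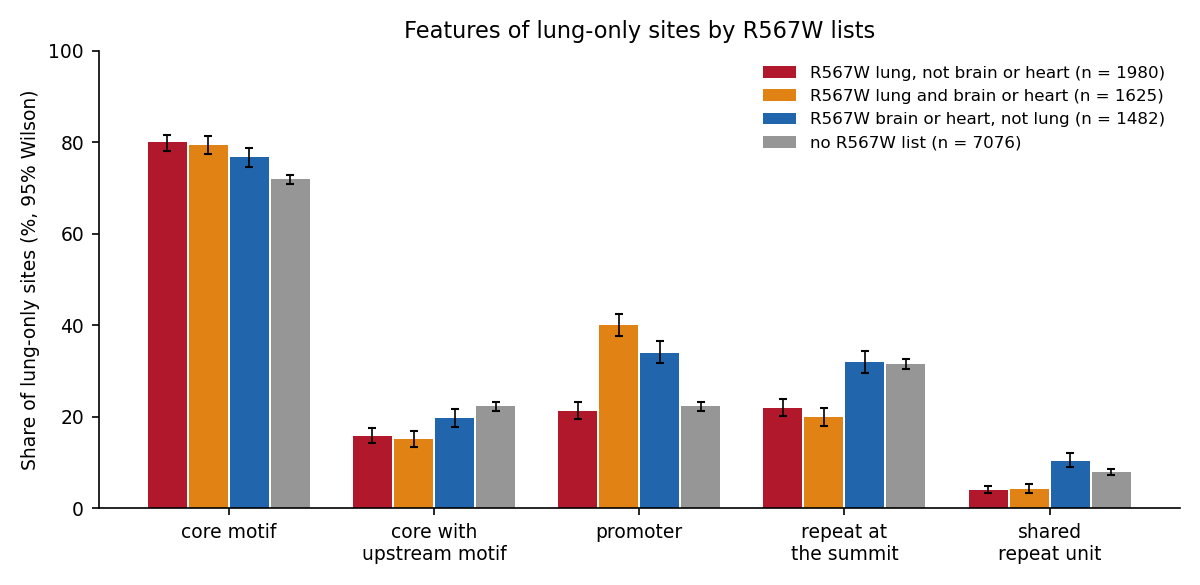
Share of lung-only sites (y axis, %, bars are 95% Wilson intervals) with a core motif, a core motif with an upstream motif, a promoter position, repeat sequence at the summit and the shared repeat unit described next (x axis), for the 4 classes of R567W lists. Promoters are most frequent at 40.1% in the orange class, and repeats at the summit are less frequent in the classes listed in R567W lung (red and orange) than in the others.

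The summit was in soft-masked sequence, which is repetitive DNA, at 28.4% of lung-only sites and 14.6% of the other wild-type lung sites. At positions 1100 bp away the shares were 25.7% and 24.3%. Lung-only sites with a core motif lay above their surroundings, at 35.5% against 26.7%, and promoter members below theirs, at 8.12% against 20.8%. The difference between the sets was 1.76 points (0.23 to 3.29) within deciles of pileup and 6.45 points (5.18 to 7.71) within deciles of fold enrichment. At brain-only sites the share was 29.3%. The word TGTGGTT, the letters of a RUNX motif, was in 11.3% of the 200 bp windows at lung-only summits on either strand, in 6.27% at the other sites and in 5.29% of windows 1100 bp away. At brain-only sites it was in 13.5% (12.6 to 14.5), more often than at lung-only sites. Of the 979 lung-only core sites with this word within 80 bases of the start of the core on the same strand, 771 had it exactly 49 bases after the first base of the core. At the other wild-type lung sites it was 526 of 845. This spacing was chosen after the values were seen. Sites with the word within 3 bases of that position are called the shared repeat unit below. Their 4 strongest members show how alike the DNA is. Each is 65 bases of GRCm38, with the core motif and the word in capitals.
Nupr1l, chr5:129914220-129914284, plus strand: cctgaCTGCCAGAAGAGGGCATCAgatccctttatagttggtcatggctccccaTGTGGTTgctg
Eno1, chr4:150260926-150260990, plus strand: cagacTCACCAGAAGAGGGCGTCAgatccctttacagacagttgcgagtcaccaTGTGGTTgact
Klhl8, chr5:103915013-103915077, plus strand: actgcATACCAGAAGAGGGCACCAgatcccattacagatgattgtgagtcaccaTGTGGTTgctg
Cd200, chr16:45413654-45413718, minus strand: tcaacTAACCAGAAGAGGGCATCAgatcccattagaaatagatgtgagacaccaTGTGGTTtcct

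Rodent genomes hold many short interspersed repeats of the B2 family that carry a CTCF core motif, but the annotation used here names no repeat classes, so none was assigned. The unit was at 865 lung-only sites, or 7.11%, at 1.94% of the other wild-type lung sites and at 9.36% of brain-only sites. Within deciles of pileup, lung-only and other wild-type lung sites differed by -0.27 points (-1.26 to 0.73), and within deciles of fold enrichment by 2.31 points (1.59 to 3.03), so an excess of the unit was seen with one measure of strength and not with the other. These 865 members had a median pileup of 15 reads, and 96.4% had a soft-masked summit. They were in the R567W lung list at 17.1% (14.7 to 19.8), against 33.1% (32.1 to 34.1) of the other members with a core motif, and the difference was -5.90 points (-8.49 to -3.32) within deciles of pileup. In R567W brain or heart the shares were 25.8% and 26.8%, which differed by less than their counting error (-3.97 to 2.16 points). The unit near Klhl8 had 63 reads in wild-type lung and no R567W list, and those near Nupr1l, Eno1 and Cd200 had 69, 60 and 34 reads in wild-type lung and 22, 17 and 20 in R567W lung. How uniquely reads map in repeats bears on these values in all lists and was not tested.

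Lung-only sites were also counted at genes of lung cell types and, for comparison, at genes of heart muscle and neurons. Sites were assigned to a gene when the summit lay in its body or within 50 kb of a start site. The share was 29.0% (38 of 131 sites) at markers of alveolar and airway epithelium, 37.0% (90 of 243) at regulators of lung development, 33.3% (19 of 57) at markers of lung mesenchyme, 33.3% (32 of 96) at markers of endothelium and 32.4% (33 of 102) at markers of blood and immune cells. It was 28.1% at all protein-coding genes. This value lay inside the intervals for epithelium (21.9 to 37.3), mesenchyme (22.5 to 46.3), endothelium (24.7 to 43.2) and blood (24.1 to 41.9). It lay below that for developmental regulators (31.2 to 43.3). Median pileup was 41 reads at developmental regulators and 55 at all protein-coding genes, and strength was not held in this comparison. At cardiomyocyte genes the lung-only share was 16.7% (16 of 96, 10.5 to 25.4) and at neural genes 16.4% (12 of 73, 9.66 to 26.6), both intervals below 28.1%. The 5 lung lists together came to 33.7% and both comparison lists together to 16.6%, a difference of 17.1 points (9.80 to 23.2), of which the larger part was the low share at the comparison lists. The rule itself bears on this value, because the comparison lists are genes of the tissues whose wild-type lists a lung-only site must avoid. Strength moved with this difference, since the median pileup of all wild-type lung sites was 53 reads at the lung lists and 79 at the comparison lists. Within deciles of pileup the difference was 9.44 points (2.34 to 16.5). Fgfr2 alone gave 97 sites, 33 of them lung-only, because its annotated body spans 2961 kb, and without it the difference was 17.0 points (9.58 to 23.4).

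The lung-only sites that were in the R567W lung list and in neither R567W brain nor heart were 8.45% of the wild-type lung sites at the lung lists, 1.18% at the comparison lists and 4.57% at all protein-coding genes. The first 2 differed by 7.27 points (3.68 to 9.85), and by 7.31 points (3.63 to 10.1) without Fgfr2. These sites had to be absent from brain and heart in both genotypes, so the choice favours this direction at heart and neural genes, and the difference was not computed within deciles of pileup. At least 1 lung-only site lay at 20 of 31 epithelium genes, 26 of 36 developmental regulators, 12 of 16 mesenchyme genes, 15 of 20 endothelium genes and 15 of 20 blood and immune genes. It was 11 of 20 for cardiomyocyte genes, 10 of 20 for neural genes and 12721 of 21911, or 58.1%, for all protein-coding genes. Besides Fgfr2, the genes with the most were Plvap, which encodes a protein of endothelial fenestrae, with 5 lung-only sites of 14, Tbx2 with 5 of 13 and Runx1 with 5 of 6. In R567W lung, 4 of the 5 were listed at Plvap, 2 at Tbx2 and 2 at Runx1. Each of Bmp4, Clic5, Grhl2, Foxp4, Elf3, Spi1 and Foxp1 had 4, out of 4, 10, 7, 5, 5, 9 and 9 wild-type lung sites. In R567W lung, 3, 3, 2, 1, 1, 1 and 0 of them were listed, against 29.6% of all lung-only sites.

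**Figure D5:**
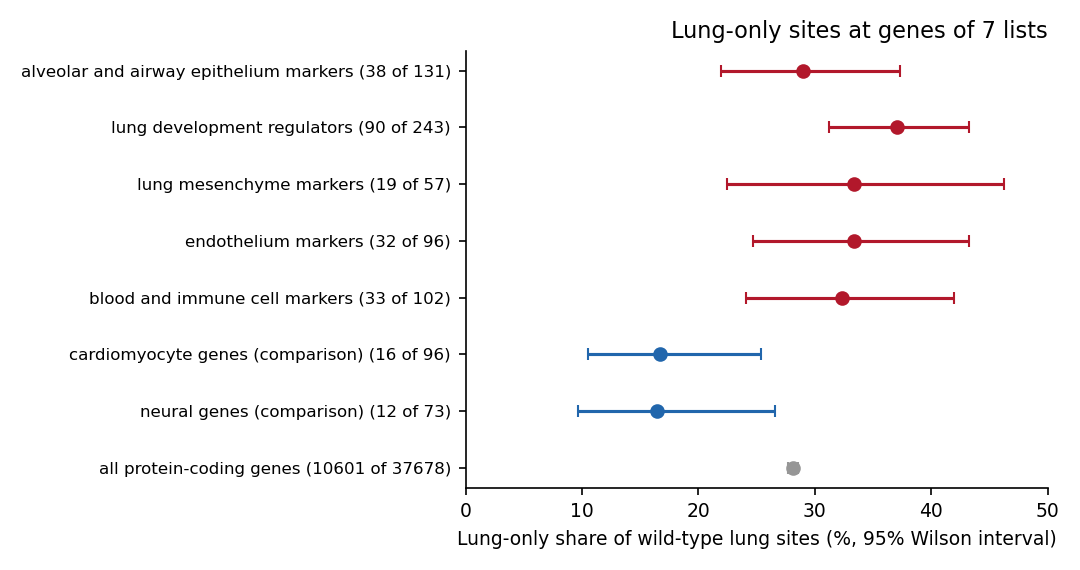
Share of wild-type lung sites that were lung-only (x axis, %, points with 95% Wilson intervals) at genes of 7 lists and at all protein-coding genes (y axis, with counts). Lung, endothelial and blood lists in red lie between 29.0% and 37.0%, the comparison lists in blue at 16.7% and 16.4%, and all protein-coding genes in grey at 28.1%.

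Within 1 kb of a start site of the 123 lung, endothelial and blood genes, 18 lung-only sites were found at 17 genes. Over the whole genome, 3152 lung-only sites lay within 1 kb of an annotated start. The share of all protein-coding genes with such a site was not computed, so the 17 genes are a description and not an excess at lung genes. They were weaker than the strongest members, with 7 to 54 reads and a median of 19.5. Of the 18, 10 were in R567W lung, 7 of these in neither R567W brain nor heart, and 8 were in no R567W list. A core motif was found at 9 of the 18, and 8 of these 9 were in R567W lung, against 2 of the 9 without a core motif. Over all promoter members these shares were 40.5% with a core motif and 27.9% without, which lie closer together. Strength moved with the motif, since the 9 sites with a core motif had 18 to 54 reads and the 9 without it 7 to 21, and over all members the difference tied to the core motif was -0.12 points within deciles of pileup. Among epithelial genes, the site at the start of Krt8, a keratin of simple epithelia, had 53 reads in wild-type lung and 56 in R567W lung and was in no brain or heart list. At Cdh1, the gene of E-cadherin, the values were 26 and 32 reads, with 16 in R567W brain. At Lpcat1, an enzyme of surfactant lipid synthesis, there were 33 reads in wild-type lung and no R567W list.

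Among genes of connective tissue and vessels, the site 913 bp from the start of Col1a2, a chain of type I collagen, had 54 reads in wild-type lung and 37 in R567W lung. At Sox7, a transcription factor gene of endothelium, there were 22 reads in both lungs and 10 in R567W brain, and at Ets1 there were 24 in wild-type and 18 in R567W lung. At the blood regulators Ikzf1 and Runx1, the values were 51 and 21 reads in wild-type lung and 47 and 18 in R567W lung. Ikzf1 also had 26 reads in R567W brain. The sequences of 3 of these promoter sites are shown because they were in R567W lung, with the core motif in capitals and no upstream motif in the 30 bases before it.
Cdh1, chr8:106603270-106603324, minus strand: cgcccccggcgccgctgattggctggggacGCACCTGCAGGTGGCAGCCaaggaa
Col1a2, chr6:4506395-4506449, minus strand: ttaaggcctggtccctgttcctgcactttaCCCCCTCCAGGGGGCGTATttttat
Sox7, chr14:63943534-63943588, minus strand: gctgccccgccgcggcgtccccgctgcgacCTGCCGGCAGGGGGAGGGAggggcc

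The promoter sites of developmental regulators had 7 to 21 reads. At Tbx2, a T-box factor of lung mesenchyme, there were 18 reads in each lung. At Gli3, an effector of Hedgehog signalling, there were 9 reads in wild-type and 11 in R567W lung, and at Fgfr2, the receptor through which Fgf10 drives branching, 12 and 9. Lung-only sites at Elf3 (9 reads), Spry2 (21), Etv5 (12), Foxp4 (12), Yap1 (12) and a pair at Foxf1 (7 and 9) were in no R567W list and had no core motif. Values of this size lie in the lowest 3 deciles of pileup, in which 15.5%, 22.1% and 33.1% of lung-only sites were in R567W lung, so an absence there was not distinguishable from the threshold.

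Besides TGTGGTT, short words of 9 other factor families were counted in the 200 bp windows on either strand. GGGGCGG, a word of SP factors, was in 9.42% of windows at lung-only sites, 5.93% at the other wild-type lung sites and 2.52% of windows 1100 bp from the lung-only summits. CCGGAAG, a word of ETS factors, was in 3.17%, 2.30% and 1.04%. Both went with promoters: they were in 29.5% and 8.79% of promoter members and in 2.41% and 1.21% of the other members. TGTTTAC, a word of FOX factors, was in 2.38% of lung-only windows and 2.41% of windows 1100 bp away. At promoter members these values were 1.55% and 2.70%, and at the other members 2.67% and 2.31%. CCAATCA, a word of NFY, was in 2.42% and 2.03%, with 5.27% and 1.74% at promoter members and 1.42% and 2.13% at the other members. AGATAAG of GATA factors, at 1.41% against 2.76%, GGAATG of TEAD factors, at 8.47% against 10.5%, and ACAATGG of SOX factors, at 2.06% against 2.54%, were less frequent at the summits than around them. TGANTCA of AP-1 was at 5.34% against 5.63%. CACTNGA, a word of NKX factors, was in 1343 of 12163 windows against 1050 around them. At lung-only sites with a core motif it was in 1090 of 9095 windows, and at the other wild-type lung sites in 5087 of 31513. Its letters can lie within a CTCF core motif, and the part of the core motif in these counts was not tested. A match is a description of these letters only.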

How the data were processed

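CTCF ChIP-seq peak lists of 6 libraries were used, 1 per tissue and genotype. Per the labels and the study's methods, adapters were removed by Trim Galore and reads placed by Bowtie2 on the joined mouse (mm10, the assembly GRCm38) and human (hg38) genomes. Uniquely placed mouse reads went to MACS2 with its default settings, and the authors deposited 1 list per library. The 6 input libraries have no list and were not analysed here. The input used for each list and the effective genome size are not given in the sources used here. Spike-in factors do not enter a peak list. Fold enrichment, deposited as a ratio, sets summit pileup against local background, each plus a pseudocount, and the deposited p-values and q-values are −log10 values. The deposited score and the summit offset were made by the authors' peak caller, and the score was not used.

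Summit pileup and background were recovered by solving fold enrichment and p-value together, which fitted 100% of lines, and were tested on simulated data. Regions were merged with bedtools 2.31.1 at an overlap of at least 1 bp, and the lung region of highest fold enrichment stood for a site. Genes were from GENCODE M21 (basic), sequences from the RefSeq GRCm38.p6 genome. The core matrix of 19 columns was learned from 1965 of the 2000 strongest wild-type brain peaks and called at p of 1e-04 or less within 100 bp of the summit. Differences within deciles of pileup were weighted by the lung-only sites. Named sites were the 10 strongest members, the 6 strongest in both lung lists and no other R567W list, the 4 strongest in no R567W list, members within 1 kb of a start site of a list gene, and sites at the edge of the rule. Repeat-unit sites and the promoter sequences were added after their values were seen. The members, gene lists and motifs were chosen with earlier results of these data known. Alternatives were other thresholds, list lengths, overlaps, motif cutoffs, promoter distances, strata and chromosomes. Computation used pandas 2.3.3, numpy 2.4.6 and scipy 1.17.1 under Python 3.11.15, and plots matplotlib 3.10.9.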

Additional observations from a re-analysis of the deposited data

How the results depend on the processing

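No paired analysis within a tissue was possible because each tissue and genotype had 1 library and the labels give no shared replicate numbers. For the same reason no library could be left out. Wild-type and R567W libraries of a tissue were set side by side for listing and, in lung, for pileup ratios, and no paired test over tissues was made. Of the 56 recomputed values, 32 moved, beyond the 95% interval of the value in the report or, for the number of sites, by more than 1.5 times, and none of the signed differences among them reversed. Of the other differences in the report, lung-only minus other sites within deciles of pileup turned from 7.84 to -7.60 points for promoters and from 5.17 to -0.27 points for the repeat unit (2.31 within deciles of fold enrichment), and core minus no core in R567W lung from 7.73 to -0.12 points. Values are given in the order share in R567W lung, share in R567W brain or heart, share with a core motif, promoter share and, in points, the difference tied to the upstream motif. With wild-type lung regions of −log10 q of at least 5 only, they were 34.3%, 26.5%, 84.0%, 15.6% and -14.4. With all 6 lists at that threshold, they were 32.1%, 24.2%, 83.7%, 17.6% and -14.0, and the difference from other wild-type lung sites over deciles of pileup was -11.3 points. With each list cut to at most the length of the shortest wild-type list, the number of sites was 1571. The values were then 51.9%, 22.7%, 93.1%, 10.8% and -24.8, and the difference was -13.6 points. With summits within 100 bp counted as shared, the first 4 values were 27.7%, 23.2%, 73.6% and 28.4%, and the difference was -12.8 points. Without sites within 1 kb of a wild-type brain or heart region, the core motif share was 76.2% and the promoter share 24.1%. A core motif cutoff of 1e-05 gave a core share of 48.9%. The upstream difference was -16.1 points with at most 1 mismatch and -1.93 points in the mirrored window. A promoter distance of 2 kb gave 31.5%. The difference from other sites was -28.9 points over deciles of fold enrichment and -51.6 points without strata. The gene list difference, with settings chosen after seeing the data, was 9.44 points within deciles of pileup and lay between 12.8 and 20.7 points with a reach of 100 and 20 kb, outside promoters and without Fgfr2. The cause of these shifts was not tested. Lists give no reads below their thresholds, so weaker binding in brain, heart or R567W lung could not be measured.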

Other observations

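Adjacent lung-only sites were also counted as runs, and 5707 of the 8279 runs held only 1 site. Ordered along the chromosomes among all wild-type lung sites, 615 of the 12163 members lay in 113 runs of 5 or more lung-only sites with no shared wild-type lung site between them. The longest run held 9 sites over 138 kb on chromosome 5 around Ankle2, Chfr and Golga3, and 3 of the 9 were in R567W lung. Runs of 8 sites lay at Nfia, which encodes a nuclear factor I transcription factor, with 1 of 8 in R567W lung, and at Kl and Stard13 with 3 of 8. A further run of 8 lay in the Cyp2b cytochrome P450 cluster around Cyp2b10, Cyp2b13 and Cyp2b19, with 2 of 8. No run was set against a chance arrangement, so whether runs were longer or more frequent than under one was not tested.

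The lung-only share of wild-type lung sites was 27.8% on the autosomes (27.4 to 28.2) and 30.7% on the X chromosome (28.1 to 33.4). It was lowest on chromosome 14, with 415 of 1661 sites, and highest on the X chromosome, leaving out the Y chromosome with 2 wild-type lung sites.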
